A study of Mus musculus with 9 samples.

Results

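The genes described are the mitochondrial carriers of the Slc25 family, taken as every row of the deposited count table whose Ensembl mouse identifier maps to a protein-coding symbol that begins with Slc25a. There were 47 such genes among 49671. Total RNA was sequenced from CD3+ T cells, enriched on columns from the spleens of female F1 mice, in 3 groups of 3 libraries. Inhibitor libraries came from cells kept for 48 hours with plate-bound anti-CD3 (1 µg/ml), soluble anti-CD28 (10 µg/ml) and IMD-0354 (2.5 µM), which inhibits IKK-beta, a kinase upstream of NF-kB. Stimulated libraries came from cells given the same antibodies for the same time without IMD-0354. Unstimulated libraries came from cells lysed directly after isolation. All groups share the hybrid genotype, with a C57BL/6 mother heterozygous for an Xist deletion and a castaneus father. The cross is meant to skew X inactivation, but counts not split by allele cannot show whether it was skewed in these animals. No vehicle is named for the stimulated cultures and there was no group cultured without antibodies, so effects of culture and of stimulation cannot be told apart.

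Slc25 carriers are membrane proteins built on one shared fold, and most of them sit in the inner mitochondrial membrane, where they exchange metabolites, nucleotides, cofactors and ions between the cytosol and the matrix. Each carrier has a narrow set of substrates, so the family links glycolysis, the citrate cycle, fatty acid oxidation, amino acid metabolism and the export of ATP. T cells that leave the resting state enlarge their mitochondria and draw on these exchanges for growth and division.

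Total counts ranged from 34009988 to 56221174 per library. The 7 T cell markers examined (Cd3d, Cd3e, Cd3g, Trac, Cd2, Cd5 and Thy1) were present in each library, with a summed level of 1525 to 1597 CPM (reads per gene relative to TMM-adjusted library totals) in inhibitor, 1767 to 1869 in stimulated and 1269 to 1975 in unstimulated libraries. Markers of other blood cells were higher in unstimulated libraries. The summed level of 8 myeloid markers was 24.4 to 39.0 CPM in inhibitor, 8.66 to 11.8 in stimulated and 973 to 2756 in unstimulated libraries, and all 8 were called lower in stimulated libraries. For 6 B cell markers the sums were 142 to 144, 65.3 to 74.0 and 504 to 1318 CPM in the same order of groups, with all 6 called lower in stimulated libraries. The 4 NK markers summed to 32.1 to 41.0, 23.5 to 27.6 and 185 to 220 CPM, and all 4 were called lower in stimulated libraries. Of these, Ncr1, Klrb1c and Klre1 fell with the inhibitor against stimulated cells, and Eomes rose, with 33.2 ± 5 CPM in inhibitor and 15.7 ± 2.64 in stimulated libraries. The 9 erythroid markers summed to 0.74 to 11.8, 1.18 to 6.17 and 37.8 to 937 CPM, and 7 were called lower in stimulated libraries. The 4 platelet markers summed to 3.96 to 5.42, 2.38 to 5.46 and 9.28 to 14.9 CPM, and of the 3 tested 2 were called lower. Defining markers at 0 were Gp9 (platelets) in all 6 cultured libraries, S100a8 (neutrophils) in 2 stimulated and 1 inhibitor library, and Slc4a1 (red cells) in 2 stimulated libraries. Unstimulated library 2 had the highest sums of B cell, myeloid, erythroid and platelet markers. In inhibitor library 1 as many as 30106 genes had a count, whereas 20547 to 23223 had one elsewhere. The part of these cells and of these libraries in the differences given here was not tested, and in such bulk samples fewer cells of a type and less RNA per cell cannot be told apart.

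Of the 47 carriers, 36 have at least one promoter in the RefSeq table for GRCm38.p6, which covers 250 bases before to 50 bases after each start. The hexamer CACGTG, an E-box that reads the same on both strands, was in the promoter of 7 of the 36 (19.4%), against 8.09% of the 27025 genes in that table. The 7 were Slc25a1, Slc25a13, Slc25a14, Slc25a15, Slc25a31, Slc25a33 and Slc25a36. A form of the NF-kB site, GGGA followed after any 2 bases by TTCC, searched on both strands and chosen after the data were seen, was in none of the 36 and in 1.63% of all genes. Sequences are shown for the carriers with the 2 highest fold changes in stimulated cells (Slc25a1 and Slc25a13) and for a pair of pyrimidine nucleotide carriers of which one was called and the other was not (Slc25a33 and Slc25a36). All are on the minus strand and written 5′ to 3′, with CACGTG in capitals. They lie at chr16:17928170-17928469, chr6:6217124-6217423, chr4:149774218-149774517 and chr9:97110992-97111291, and the motif begins 239, 125, 8 and 187 bases before the start, in the order printed. A match is a description of the letters and does not show that a factor binds.
Slc25a1: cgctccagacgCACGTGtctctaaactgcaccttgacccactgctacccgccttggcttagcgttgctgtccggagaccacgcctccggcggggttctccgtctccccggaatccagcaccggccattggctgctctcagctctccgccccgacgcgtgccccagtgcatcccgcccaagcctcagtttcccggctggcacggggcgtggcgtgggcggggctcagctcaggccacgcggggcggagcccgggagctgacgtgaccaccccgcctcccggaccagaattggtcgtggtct
Slc25a13: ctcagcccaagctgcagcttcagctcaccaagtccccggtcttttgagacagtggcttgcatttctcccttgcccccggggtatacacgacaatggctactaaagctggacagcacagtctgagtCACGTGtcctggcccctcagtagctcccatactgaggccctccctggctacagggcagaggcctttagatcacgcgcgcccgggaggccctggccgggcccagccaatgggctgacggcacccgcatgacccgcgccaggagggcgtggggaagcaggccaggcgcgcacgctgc
Slc25a33: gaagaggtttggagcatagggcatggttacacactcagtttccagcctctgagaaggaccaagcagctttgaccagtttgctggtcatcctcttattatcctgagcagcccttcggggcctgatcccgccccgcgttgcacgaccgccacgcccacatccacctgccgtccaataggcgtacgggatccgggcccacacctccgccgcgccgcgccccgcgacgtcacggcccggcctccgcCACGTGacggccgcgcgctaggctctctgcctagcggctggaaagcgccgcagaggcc
Slc25a36: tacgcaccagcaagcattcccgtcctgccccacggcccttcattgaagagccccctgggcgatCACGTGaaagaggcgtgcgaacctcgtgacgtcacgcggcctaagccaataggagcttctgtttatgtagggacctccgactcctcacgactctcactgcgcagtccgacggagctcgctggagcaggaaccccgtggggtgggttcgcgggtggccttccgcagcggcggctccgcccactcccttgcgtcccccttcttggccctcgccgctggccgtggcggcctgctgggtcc

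Levels of the carriers spanned several orders of magnitude. Over all 9 libraries 3 members averaged at least 100 CPM (Slc25a3, Slc25a5 and Slc25a36), 26 averaged 10 to 100, 10 averaged 1 to 10, and 8 averaged less than 1. A filter on low counts left 42 members for testing. The other 5 were Slc25a18, Slc25a31, Slc25a41, Slc25a48 and Slc25a54. Neither Slc25a31, the adenine nucleotide carrier of the male germ line, nor Slc25a54 had a count in any library, which allows up to 0.00731 CPM (3 counts over the 9 libraries, counting error only). Slc25a18, a glutamate carrier, had 0 to 41 counts per library, and the most were in unstimulated library 2. Levels were also divided by the length of all annotated exons of a gene (1646 bases for Slc25a5, 5550 for Slc25a3). That length need not be the length of the transcripts present, so ranks between genes are approximate. On that scale Slc25a5 was the highest member in each group, with 204 ± 30.5 CPM per kb in inhibitor, 332 ± 19.4 in stimulated and 98.6 ± 7.39 in unstimulated libraries (mean ± SD, n = 3 each), and Slc25a3 was second in each. The order depends on the divisor. In CPM, Slc25a3 was above Slc25a5 in inhibitor (379 against 335) and unstimulated libraries (241 against 162), and below it in stimulated libraries (392 against 546).

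**Figure D1:**
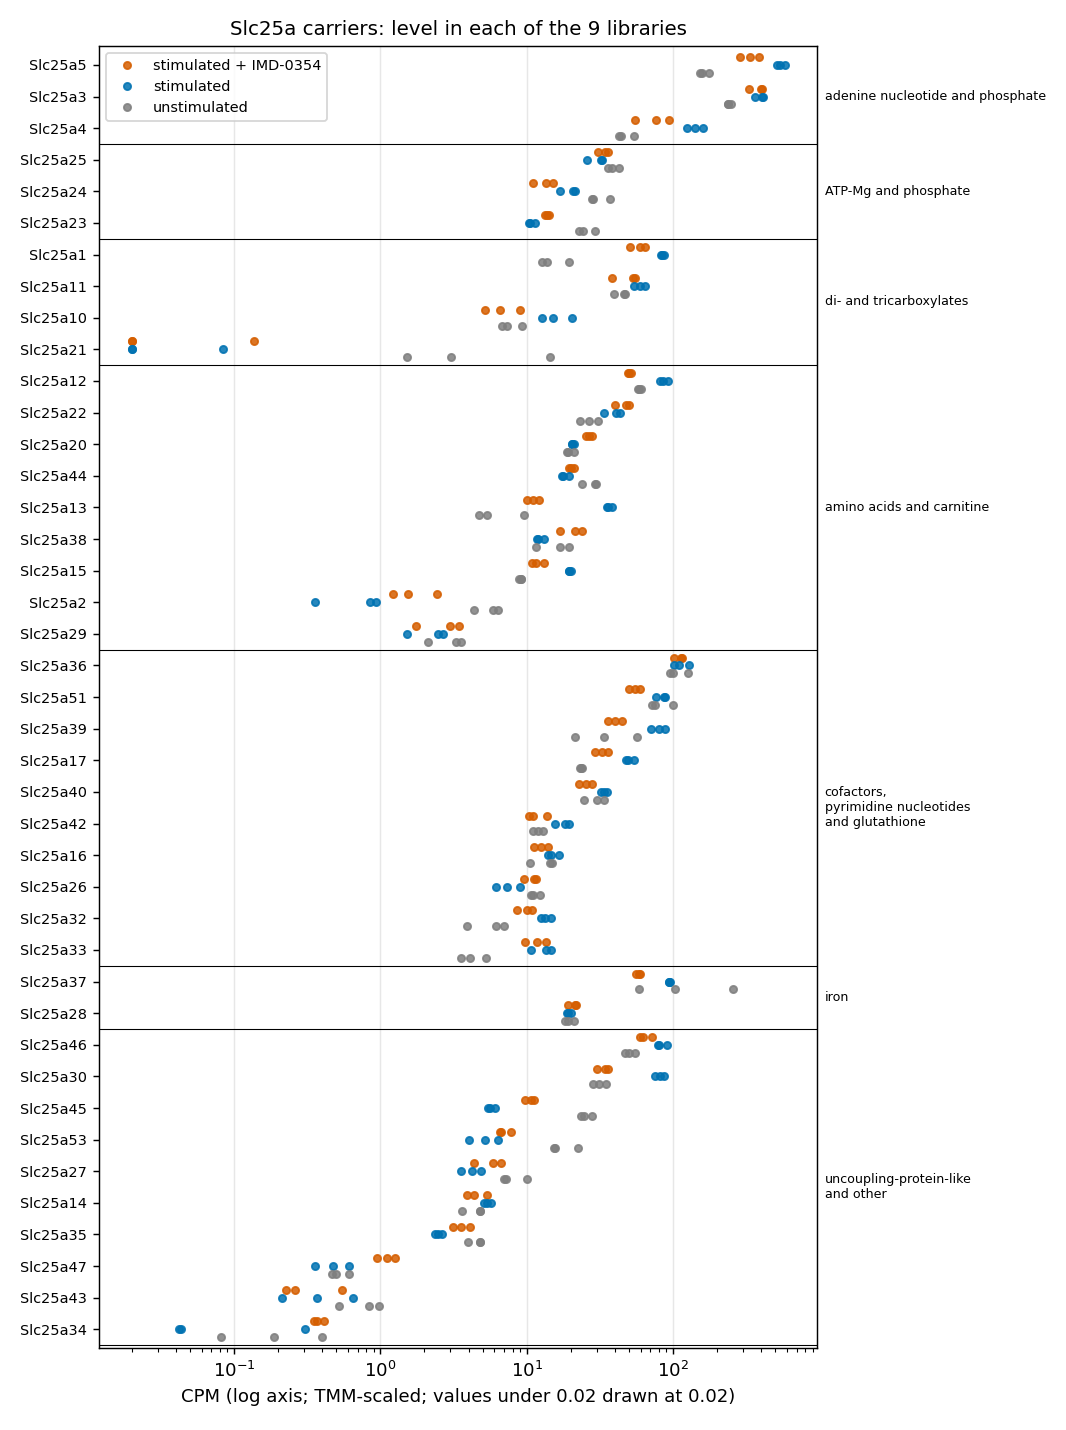
Level of the tested carriers named here in each of the 9 libraries, in CPM on a log axis, grouped by the substrates they carry. Points are single libraries; Slc25a5 and Slc25a3 lie furthest right, and Slc25a21 is near 0 in all 6 cultured libraries.

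The summed level of the 47 carriers was 1562, 1761 and 1836 CPM in inhibitor libraries 1 to 3, 2222, 2297 and 2413 CPM in stimulated libraries and 1356, 1615 and 1364 CPM in unstimulated libraries. Stimulated libraries were all above the others, and the inhibitor and unstimulated groups overlapped. The mean was 1719.8 ± 141 CPM in inhibitor, 2311 ± 95.9 in stimulated and 1445 ± 147 in unstimulated libraries (SD, n = 3 each). Slc25a5 alone took 19.4% of the sum in inhibitor, 23.6% in stimulated and 11.3% in unstimulated libraries. Without Slc25a3, Slc25a4 and Slc25a5 the remaining 44 members summed to 930.1 ± 32.7, 1232 ± 27.4 and 995 ± 142 CPM in the same order, so the log2 ratio of the sums between inhibitor and unstimulated libraries, 0.25 for all members, was -0.1 for these.

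**Figure D2:**
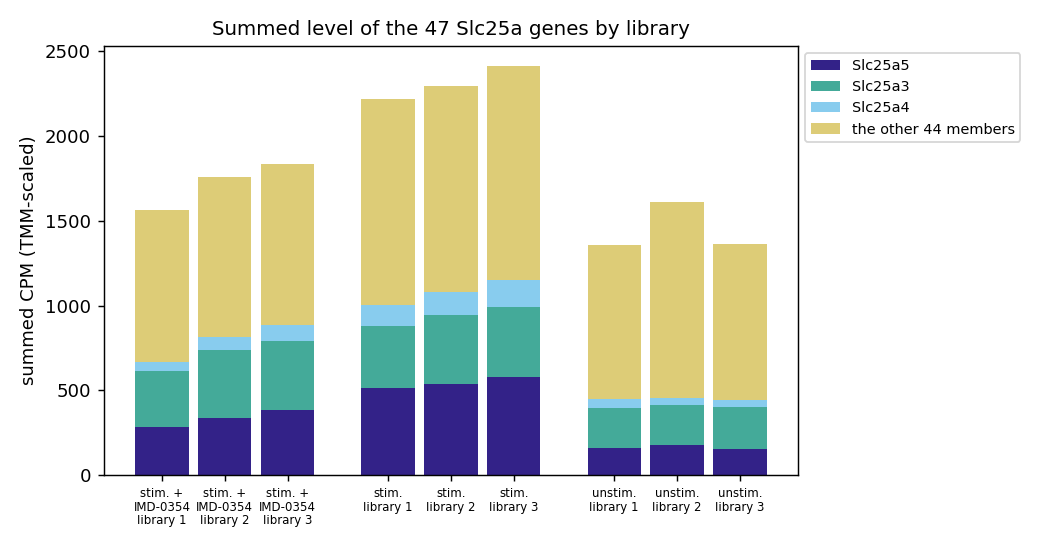
Summed CPM of the 47 carriers in each library, stacked by Slc25a5, Slc25a3, Slc25a4 and the other 44 members. The 3 stimulated bars reach 2222 to 2413 CPM, above all inhibitor and unstimulated bars.

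Calls come from one edgeR quasi-likelihood fit over all genes, with Benjamini-Hochberg adjustment over the 18374 genes tested and a threshold of 0.05; "rose" and "fell" are used only of genes that passed it. In stimulated against unstimulated cells 18 of 42 carriers (42.9%) rose, where 32.0% of all tested genes did, and 11 (26.2%) fell, where 34.0% of all tested genes did. The median log2 fold change of the carriers was 0.13, against -0.05 for all genes. In inhibitor against stimulated cells 8 carriers (19%) rose, where 21.7% of all genes did, and 16 (38.1%) fell, where 22.8% did. Here the median was -0.25 for the carriers and 0.03 for all genes. In inhibitor against unstimulated cells 14 carriers (33.3%) rose, where 26.3% of genes did, and 10 (23.8%) fell, where 26.1% did, with a median of 0.04 for the carriers and 0 for all genes. The 3 comparisons share libraries in pairs. Scaled to total counts alone, the last split was 10 higher and 11 lower for the carriers, and 3988 higher and 5175 lower for all genes, against 4826 and 4800 with TMM factors.

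Among genes with a mean of at least 10 CPM, which are called more often, 29 carriers were tested. In stimulated against unstimulated cells 15 of them rose and 6 fell, where 38.7% of such genes rose and 39.0% fell. In inhibitor against stimulated cells 4 rose and 16 fell, where 31.1% rose and 31.5% fell. In inhibitor against unstimulated cells 9 rose and 9 fell, where 32.8% rose and 32.6% fell. Leaving out each of the 9 libraries in turn, 27 of the 29 calls in stimulated against unstimulated cells held every time, against 13 of 24 in inhibitor against stimulated cells and 18 of 24 in inhibitor against unstimulated cells. The count of 8 carriers that rose in inhibitor against stimulated cells was 3 without stimulated library 1, 4 without stimulated library 2 and 3 without inhibitor library 2, and it was 3 with no filter on low counts. Calls over all genes fell too. Of 18374 genes 3990 rose with all libraries, and 3499, 3224 and 3333 rose without those libraries, in the same order. With no filter 3689 of 34271 genes rose.

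**Figure D3:**
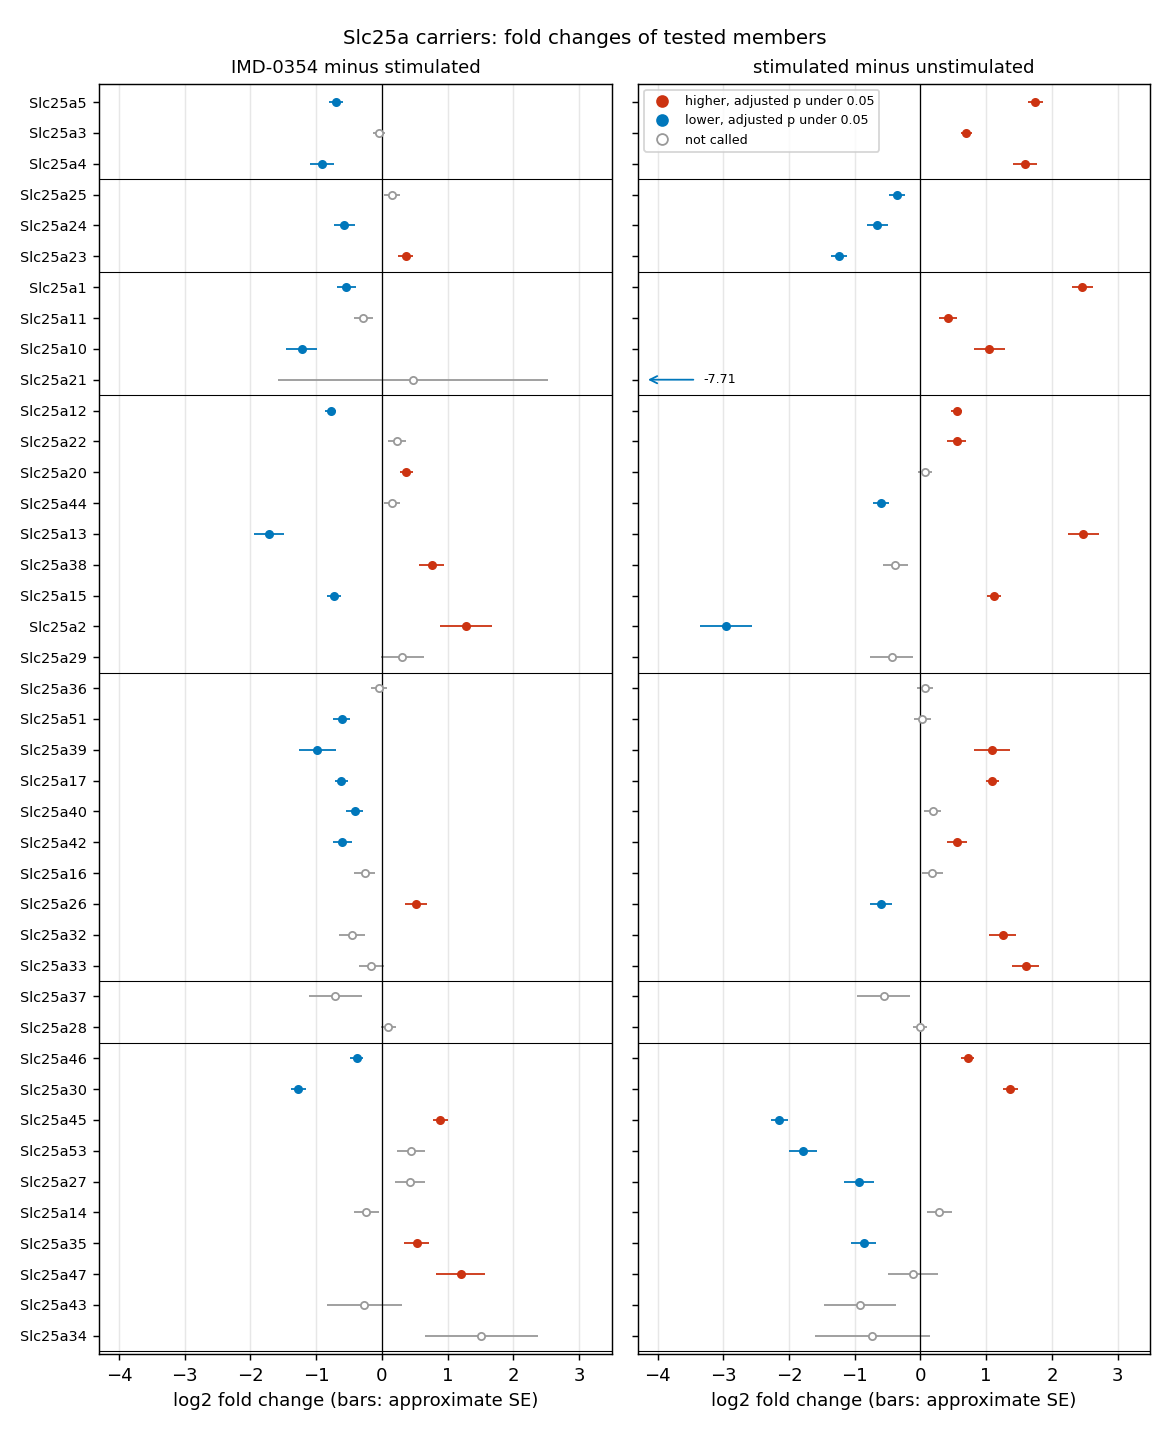
Fold changes (log2) of the tested carriers named here in inhibitor minus stimulated (left) and stimulated minus unstimulated cells (right), with bars for the approximate SE and filled points for adjusted p under 0.05. On the right the 3 adenine nucleotide and phosphate carriers are all higher and the 3 ATP-Mg carriers all lower. Of all genes 32.0% rose and 34.0% fell there. An arrow marks Slc25a21 at -7.71.

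The carriers of adenine nucleotides and phosphate supply ATP synthase and export its product. All 3 tested members rose in stimulated cells, where 32.0% of all genes did. Slc25a5 (Ant2, on the X chromosome) exchanges ADP for ATP, and its level was 285, 335 and 385 CPM in inhibitor libraries, 517, 539 and 580.3 CPM in stimulated libraries and 158, 176 and 153 CPM in unstimulated libraries. The groups did not overlap. In stimulated against unstimulated cells it rose by 1.75 ± 0.11 on the log2 scale (edgeR adjusted p 7e-07), where ± gives an approximate SE, obtained by dividing its absolute value by the square root of F. With the inhibitor it fell by 0.70 against stimulated cells (adjusted p 0.00069, edgeR) and still rose by 1.05 against unstimulated cells (adjusted p 3.4e-05, edgeR). The reference tables list pseudogenes of Slc25a5, with which reads may have been shared, so its level is uncertain.

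Slc25a4 (Ant1), the form of the same exchanger best known from heart and muscle, had 55.3, 76.9 and 93.2 CPM in inhibitor, 125, 141 and 159 CPM in stimulated and 54.2, 42.6 and 43.9 CPM in unstimulated libraries. The groups did not overlap, although the lowest inhibitor library lay close to the highest unstimulated one. Slc25a4 rose by 1.59 ± 0.18 in stimulated cells (edgeR adjusted p 3e-05) and fell by 0.91 ± 0.18 with the inhibitor against stimulated cells (edgeR adjusted p 0.0023). Per kb of exon, Slc25a5 made up 86.6 ± 1.31% of the pair in inhibitor, 84.7 ± 0.829% in stimulated and 83.2 ± 2.44% in unstimulated libraries, and these ranges overlapped. Slc25a3, which brings phosphate into the matrix, had 330, 402 and 406 CPM in inhibitor, 363, 403 and 409.9 in stimulated and 238, 237 and 248 in unstimulated libraries. The cultured groups overlapped each other and stood above the unstimulated one. It rose by 0.70 ± 0.09 in stimulated cells (edgeR adjusted p 8.8e-05) and by 0.65 ± 0.09 in inhibitor against unstimulated cells (adjusted p 0.00022). In inhibitor against stimulated cells the log2 fold change of -0.05 was not called (adjusted p 0.71), and it was 0.08 and 0.03 with upper-quartile factors and with total counts.

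The calcium-dependent carriers of ATP-Mg and phosphate set the size of the adenine nucleotide pool in the matrix. All 3 tested members fell in stimulated cells, where 34.0% of all genes did. With 3 tested members in each of these 2 role groups, the counts are too small for a result about a group. Slc25a23 had 14.2, 13.4 and 13.8 CPM in inhibitor, 10.6, 10.4 and 11.4 in stimulated and 29.3, 24.2 and 22.7 in unstimulated libraries. There was no overlap between groups. It fell by 1.24 ± 0.12 in stimulated cells (edgeR adjusted p 1.1e-05), and its rise of 0.36 ± 0.12 with the inhibitor over stimulated cells had an adjusted p of 0.037 (edgeR). That call did not hold without any 1 of the 6 libraries compared (adjusted p 0.0607 to 0.116), nor with the replicate number as a block over all groups (adjusted p 0.0566).

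Slc25a24 had 13.6, 11.1 and 15.0 CPM in inhibitor, 21.5, 16.8 and 20.6 in stimulated and 28.5, 36.8 and 28.0 in unstimulated libraries. It was lowest with the inhibitor, and no groups overlapped. Slc25a24 fell by 0.66 ± 0.16 in stimulated cells (edgeR adjusted p 0.0043), by 0.57 with the inhibitor against stimulated cells (adjusted p 0.016, and 0.0535 to 0.0629 without stimulated library 1, stimulated library 3 or inhibitor library 2), and by 1.24 in inhibitor against unstimulated cells (adjusted p 0.00013). Slc25a25 averaged 33.6 ± 2.62 CPM in inhibitor, 30.3 ± 3.74 in stimulated and 38.9 ± 3.35 in unstimulated libraries. Its decrease of -0.36 in stimulated cells had an edgeR adjusted p of 0.022, which was 0.0759 without unstimulated library 3 and 0.0773 without stimulated library 1. Within the trio, per kb of exon, Slc25a24 took 35.7 ± 3.86% in inhibitor, 49.2 ± 4.88% in stimulated and 48.0 ± 5.21% in unstimulated libraries. All inhibitor shares of Slc25a24 were below all those of the other groups.

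Among the carriers of di- and tricarboxylates, 3 of 4 rose (75%, against 32.0% of all genes) and 1 fell (25%, against 34.0%) in stimulated cells. With 4 members these shares are rough. Slc25a1 exports citrate, the source of cytosolic acetyl-CoA for lipid synthesis, and had 50.8, 59.1 and 64.2 CPM in inhibitor, 82.1, 86.9 and 83.9 in stimulated and 12.8, 19.3 and 13.7 in unstimulated libraries. The groups did not overlap, and among carriers ranked per kb of exon it stood 4th with the inhibitor, 4th in stimulated and 15th in unstimulated cells. It rose by 2.46 ± 0.16 in stimulated cells (edgeR adjusted p 6.2e-07) and by 1.93 ± 0.16 in inhibitor against unstimulated cells (edgeR adjusted p 5.2e-06). Its decrease of -0.54 with the inhibitor against stimulated cells (adjusted p 0.015) had an adjusted p of 0.0528 without inhibitor library 1.

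Slc25a10, the dicarboxylate carrier that exchanges malate and succinate for phosphate, had 5.21, 6.60 and 8.96 CPM in inhibitor, 12.7, 15.2 and 20.4 in stimulated and 6.79, 9.30 and 7.30 in unstimulated libraries. Stimulated libraries were above both other groups, which overlapped. It rose by 1.05 ± 0.24 in stimulated cells (edgeR adjusted p 0.0032) and fell by 1.22 ± 0.24 with the inhibitor against stimulated cells (adjusted p 0.0025). Slc25a11, the oxoglutarate-malate exchanger, averaged 48.7 ± 8.93 CPM in inhibitor, 59.3 ± 5.33 in stimulated and 44.3 ± 4.33 in unstimulated libraries. Its rise of 0.42 in stimulated cells (edgeR adjusted p 0.024) had an adjusted p of 0.0555 to 0.0862 without unstimulated library 1, stimulated library 2 or stimulated library 3, of 0.185 with upper-quartile factors and of 0.14 with total counts. Exons of Slc25a11 share 8.9% of their bases with Rnf167 on the opposite strand, so with the strand setting not given its reads may be mixed with those of Rnf167.

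Slc25a21, the oxodicarboxylate carrier, was read almost only in unstimulated cells. It had 5, 0 and 0 counts in inhibitor libraries, 4, 0 and 0 in stimulated libraries, and 122, 620 and 75 counts (3.05, 14.4 and 1.52 CPM) in unstimulated libraries. It fell in stimulated cells (edgeR adjusted p 0.00053), with a fitted log2 fold change of -7.71 that depends on the prior count. The order of its unstimulated libraries is that of the myeloid sums (1636, 2756 and 973 CPM), the B cell sums (792, 1318 and 504 CPM) and the erythroid sums (548, 937 and 37.8 CPM), and the part of such cells in this difference was not tested.

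Of 9 tested carriers of amino acids and carnitine, 4 rose (44.4%) and 2 fell (22.2%) in stimulated cells, where 32.0% and 34.0% of all genes did. With 9 members these shares are rough and give no result about the group. Slc25a12 (aralar) and Slc25a13 (citrin) both exchange aspartate for glutamate in the malate-aspartate shuttle. Slc25a13 had 10.1, 11 and 12.1 CPM in inhibitor, 35.1, 35.8 and 38.2 in stimulated and 5.37, 9.54 and 4.68 in unstimulated libraries. The groups did not overlap, and stimulated libraries were far above both others. Slc25a13 rose by 2.48 ± 0.24 in stimulated cells (edgeR adjusted p 9.3e-06) and fell by 1.72 ± 0.23 with the inhibitor against stimulated cells (adjusted p 0.00025). Its rise of 0.76 in inhibitor against unstimulated cells (adjusted p 0.019) was at 0.0546 to 0.0684 without unstimulated library 1, unstimulated library 3 or inhibitor library 3.

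Slc25a12 had 51.8, 49.1 and 50.3 CPM in inhibitor, 82.0, 85.6 and 92.5 in stimulated and 57.8, 58.9 and 60.4 in unstimulated libraries. Its inhibitor libraries were below all unstimulated ones. It rose by 0.55 ± 0.08 in stimulated cells (edgeR adjusted p 0.00011) and fell by 0.78 ± 0.08 with the inhibitor against stimulated cells (edgeR adjusted p 3.4e-05). Against unstimulated cells the inhibitor value was -0.23 (adjusted p 0.028, and 0.0524 to 0.0961 without unstimulated library 3, stimulated library 2, or inhibitor library 2 or 3). Per kb of exon, citrin made up 27.3, 30.1 and 31.8% of the pair in inhibitor, 45.3, 44.7 and 44.4% in stimulated and 15.2, 23.8 and 13.0% in unstimulated libraries. These shares did not overlap between groups, and they come from 2 genes of the same library, so the scaling between libraries does not enter them.

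The 4 enzymes of the same shuttle (Got1, Got2, Mdh1 and Mdh2) all rose in stimulated cells, with a median log2 fold change of 1.68. Of all genes 32.0% rose there, with a median of -0.05. With the inhibitor against stimulated cells all 4 fell, with a median of -1.03, where 22.8% of all genes fell and the median was 0.03. A list of 4 genes is too short for a result about a set. Got1, the cytosolic aspartate aminotransferase, had the largest log2 fold change of the 4 in stimulated against unstimulated cells (2.86), at 61.8 ± 7.09 CPM in inhibitor, 131 ± 5.87 in stimulated and 18 ± 1.28 in unstimulated libraries. All 4 also rose in inhibitor against unstimulated cells (median 0.68), where 26.3% of all genes did (median 0).

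Slc25a15, the ornithine carrier of the urea cycle, had 10.9, 11.5 and 13.1 CPM in inhibitor, 19.5, 20.0 and 19.6 in stimulated and 9.11, 8.84 and 9.14 in unstimulated libraries. The groups did not overlap. It rose by 1.12 ± 0.11 in stimulated cells (edgeR adjusted p 1.3e-05) and fell by 0.73 with the inhibitor against stimulated cells (adjusted p 0.00057). Its relative Slc25a2, also an ornithine carrier, moved in the opposite direction at a low level. It had 1.22, 2.42 and 1.54 CPM in inhibitor, 0.359, 0.843 and 0.929 in stimulated and 5.92, 4.36 and 6.38 in unstimulated libraries. Slc25a2 fell by 2.96 ± 0.4 in stimulated cells (edgeR adjusted p 9.1e-05). Its rise of 1.28 with the inhibitor over stimulated cells (adjusted p 0.022) was at 0.0561 without stimulated library 1 and 0.0927 without inhibitor library 2.

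Slc25a22, a glutamate carrier, rose by 0.55 in stimulated cells (edgeR adjusted p 0.0066, but 0.0567 with upper-quartile factors) and averaged 46.1 ± 5.11 CPM in inhibitor, 39.2 ± 4.91 in stimulated and 26.8 ± 3.93 in unstimulated libraries. Slc25a44, a carrier of branched-chain amino acids, fell by 0.60 in stimulated cells (edgeR adjusted p 0.001), at 20.2 ± 0.899, 18.2 ± 1.1 and 27.6 ± 3.27 CPM in the same order of groups. Slc25a20, which brings acylcarnitines in for fatty acid oxidation, had 27.9, 25.3 and 26.5 CPM in inhibitor, 21, 20.3 and 20.5 in stimulated and 19.2, 18.7 and 20.9 in unstimulated libraries. Its inhibitor libraries were above all others, with a rise of 0.37 ± 0.1 over stimulated cells (edgeR adjusted p 0.011, but 0.148 with no filter on low counts) and of 0.44 ± 0.1 over unstimulated cells (adjusted p 0.0033). Slc25a38, which supplies glycine for heme synthesis, had 17.0, 24.0 and 21.5 CPM in inhibitor, 11.9, 11.8 and 13.2 in stimulated and 16.8, 19.5 and 11.6 in unstimulated libraries. It rose by 0.76 ± 0.19 with the inhibitor over stimulated cells (edgeR adjusted p 0.01), and its inhibitor and unstimulated libraries overlapped.

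The enzymes beside these carriers gave their own counts. Of 23 enzymes that make or use the substrate of a single carrier, 13 rose (56.5%, against 32.0% of all genes) and 3 fell (13%, against 34.0%) in stimulated cells, with a median of 0.82. With the inhibitor against stimulated cells 3 rose (13%, against 21.7%) and 11 fell (47.8%, against 22.8%), with a median of -0.39. Acly, which cleaves the citrate that Slc25a1 exports, averaged 212 ± 18.5 CPM in inhibitor, 433 ± 30.1 in stimulated and 191 ± 6.65 in unstimulated libraries. It rose by 1.18 in stimulated cells (edgeR adjusted p 1.5e-06) and fell by 1.03 with the inhibitor against stimulated cells (adjusted p 1.3e-05). Cpt1a, which makes the acylcarnitines that Slc25a20 carries, averaged 41.5 ± 2.86, 34.2 ± 2.62 and 84.6 ± 6 CPM in the same order. It fell by 1.30 in stimulated cells (edgeR adjusted p 1.6e-06), where Slc25a20 was not called (0.07, adjusted p 0.53). The other carnitine enzymes listed differed from Cpt1a in stimulated cells. Cpt2 rose by 0.93 (edgeR adjusted p 0.0015), and Crat was not called (-0.32, adjusted p 0.4).

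**Figure D4:**
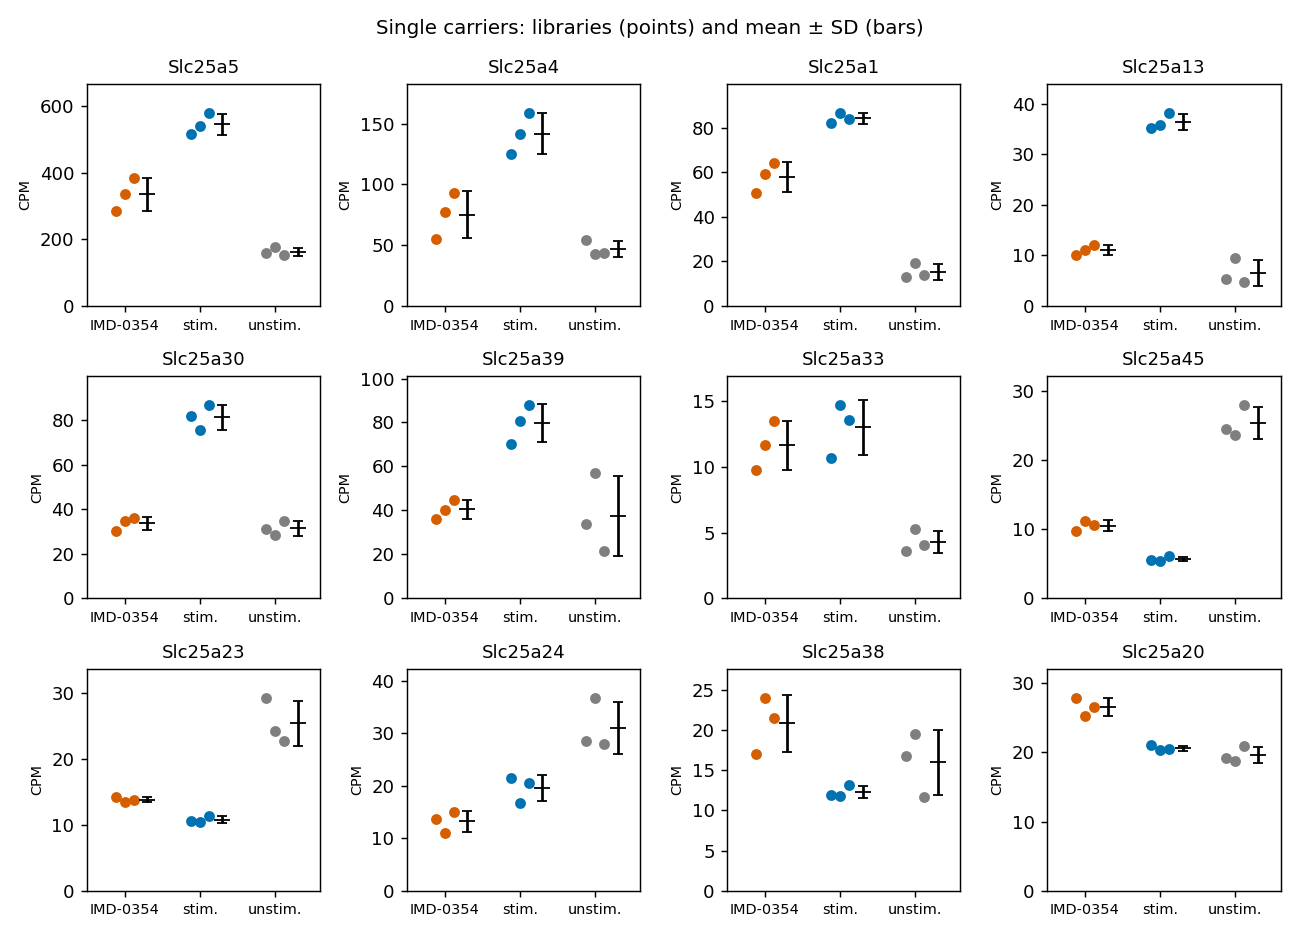
Level of 12 carriers in CPM (linear axes from 0) in inhibitor (IMD-0354), stimulated and unstimulated libraries; points are libraries and bars mean ± SD (n = 3). Slc25a13 and Slc25a30 peak in stimulated cells, Slc25a45 and Slc25a23 in unstimulated cells, and Slc25a20 with the inhibitor.

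Carriers of cofactors, pyrimidine nucleotides and glutathione formed the largest role group with a substrate, and 6 of 11 rose (54.5%, against 32.0% of all genes) and 1 fell (9.09%, against 34.0%) in stimulated cells. With the inhibitor against stimulated cells 1 rose (9.09%, against 21.7%) and 6 fell (54.5%, against 22.8%). Slc25a32 carries folate, and had 8.62, 10.1 and 10.8 CPM in inhibitor, 12.5, 13.4 and 14.7 in stimulated and 7.02, 3.92 and 6.12 in unstimulated libraries. No groups overlapped. It rose by 1.25 ± 0.21 in stimulated cells (edgeR adjusted p 4e-04) and by 0.79 in inhibitor against unstimulated cells (adjusted p 0.0087), while -0.46 with the inhibitor against stimulated cells was not called (adjusted p 0.095). The folate enzymes Shmt2 and Mthfd2 rose by 3.20 and 3.70 in stimulated cells (edgeR adjusted p 1.5e-08 and 1.3e-08).

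Slc25a33 and Slc25a36 carry pyrimidine nucleotides, and only Slc25a33 was called. It had 9.73, 11.7 and 13.5 CPM in inhibitor, 10.7, 14.7 and 13.6 in stimulated and 3.57, 5.24 and 4.09 in unstimulated libraries. The cultured groups overlapped each other and lay above the unstimulated one. Slc25a33 rose by 1.60 ± 0.2 in stimulated cells (edgeR adjusted p 5.8e-05) and by 1.44 ± 0.2 in inhibitor against unstimulated cells (adjusted p 0.00019). Slc25a36 averaged 110.1 ± 7.04 CPM in inhibitor, 113 ± 13.5 in stimulated and 107 ± 16.6 in unstimulated libraries, and its log2 fold change of 0.07 ± 0.12 in stimulated cells was not called (edgeR adjusted p 0.61). Per kb of exon, Slc25a33 took 34.9 ± 5.06% of the pair in inhibitor, 37.0 ± 6.16% in stimulated and 17.1 ± 3.51% in unstimulated libraries. An antisense gene shares 14.9% of the exon bases of Slc25a33 and had at most 6 counts in a library.

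Slc25a17, a peroxisomal carrier of coenzyme A and other cofactors, had 29.4, 36.0 and 32.7 CPM in inhibitor, 54.5, 48.9 and 47.5 in stimulated and 23.2, 23.9 and 23.6 in unstimulated libraries. There was no overlap between groups. It rose by 1.09 ± 0.1 in stimulated cells (edgeR adjusted p 8.4e-06) and fell by 0.62 ± 0.1 with the inhibitor against stimulated cells (adjusted p 0.00087).

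Of the coenzyme A carriers, Slc25a42 averaged 11.7 ± 1.75 CPM in inhibitor, 17.7 ± 1.93 in stimulated and 12 ± 0.966 in unstimulated libraries. It rose by 0.56 in stimulated cells (edgeR adjusted p 0.0063, but 0.0851 and 0.0834 with upper-quartile factors and with total counts) and fell by 0.60 with the inhibitor against stimulated cells (adjusted p 0.0072). Slc25a16, its relative, averaged 12.5 ± 1.35, 15.0 ± 1.46 and 13.2 ± 2.42 CPM in the same order and was called in no comparison. Slc25a26 imports S-adenosylmethionine, the methyl donor, and was the only one of the 11 to fall in stimulated cells. It averaged 10.7 ± 1 CPM in inhibitor, 7.48 ± 1.45 in stimulated and 11.4 ± 0.889 in unstimulated libraries, with a log2 fold change of -0.60 ± 0.17 in stimulated cells (edgeR adjusted p 0.0088). Its rise of 0.52 with the inhibitor over stimulated cells (adjusted p 0.027) was at 0.07 to 0.113 without stimulated library 1 or 2 or inhibitor library 2 or 3.

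Slc25a51 imports NAD and was lowest with the inhibitor. It had 49.9, 55.3 and 59.4 CPM in inhibitor, 87.4, 76.1 and 88.3 in stimulated and 75.3, 99.6 and 72.1 in unstimulated libraries. All inhibitor libraries were below all others. It fell by 0.61 ± 0.13 with the inhibitor against stimulated cells (edgeR adjusted p 0.0037) and by 0.59 ± 0.13 against unstimulated cells (adjusted p 0.0037), and in stimulated against unstimulated cells the difference was 0.03 ± 0.13 (adjusted p 0.86).

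Slc25a39 imports glutathione and had 36.2, 40.4 and 44.8 CPM in inhibitor, 70.4, 80.8 and 87.9 in stimulated and 33.7, 57.1 and 21.5 in unstimulated libraries. The unstimulated libraries were spread widely, all below the stimulated ones. It rose by 1.09 ± 0.28 in stimulated cells (edgeR adjusted p 0.0061). It fell by 0.98 ± 0.28 with the inhibitor against stimulated cells (adjusted p 0.017), which was 0.0559 without stimulated library 3 and 0.0549 without inhibitor library 1. In inhibitor against unstimulated cells the value was 0.11 (adjusted p 0.76), and 0.55 (adjusted p 0.0292) without unstimulated library 2. Its relative Slc25a40 averaged 25.3 ± 2.7 CPM in inhibitor, 33.7 ± 1.44 in stimulated and 29.5 ± 4.45 in unstimulated libraries, with -0.41 in inhibitor against stimulated cells (edgeR adjusted p 0.026). Leaving out any 1 of 5 libraries, all but inhibitor library 1 of the 6 compared, gave 0.051 to 0.101 for Slc25a40, and upper-quartile factors and total counts gave 0.132 and 0.128.

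The iron carriers, or mitoferrins, feed heme and iron-sulfur cluster synthesis, and neither was called in stimulated cells. Slc25a37 (mitoferrin 1), which serves hemoglobin synthesis in red cell precursors, had 55.8, 59.4 and 58.5 CPM in inhibitor, 95.4, 93.5 and 94.5 in stimulated and 103, 256 and 58.9 in unstimulated libraries. The cultured groups did not overlap and hardly varied, whereas the unstimulated libraries differed more than 3 fold among themselves. In inhibitor against stimulated cells the log2 fold change of -0.71 was not called in the fit of all 9 libraries (edgeR adjusted p 0.18). It was called in the fit of the 6 libraries compared (adjusted p 6.28e-05), in those 6 with the replicate number as a block (adjusted p 0.000237) and without unstimulated library 2 (adjusted p 0.00565). In stimulated against unstimulated cells the value was -0.56 (adjusted p 0.24, and 0.00491 with no filter on low counts), 0.23 without unstimulated library 2 (adjusted p 0.3) and -0.92 without unstimulated library 3 (adjusted p 0.0176). The value of -1.26 in inhibitor against unstimulated cells (adjusted p 0.024) was at 0.0585 to 0.0617 without any 1 inhibitor library, and without both unstimulated library 2 and inhibitor library 1 it was -0.47 (adjusted p 0.0818).

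All 9 erythroid markers were lowest in unstimulated library 3, as Slc25a37 was. Of these, 5 were highest in library 2, as Slc25a37 was, and the 4 globin genes were highest in library 1, with Hbb-bs at 344, 202 and 6.69 CPM. Slc4a1, the anion exchanger of red cells, stood at 41.4, 303 and 3.49 CPM in the unstimulated libraries, and Alas2, the first enzyme of heme synthesis in red cells, at 79.0, 210 and 6.87 CPM. In cultured libraries neither reached 2 CPM. Slc25a39 and Slc25a21 also had their highest and lowest unstimulated values in libraries 2 and 3. So did the myeloid sums (1636, 2756 and 973 CPM), the B cell sums (792, 1318 and 504 CPM) and the platelet sums (12.6, 14.9 and 9.28 CPM). The NK sums (185, 205 and 220 CPM) and T cell sums (1704, 1269 and 1975 CPM) had other orders. The part of erythroid or any of these other cells in the values of these carriers was not tested. Slc25a28 (mitoferrin 2), the form of other tissues, averaged 20.7 ± 1.54 CPM in inhibitor, 19.3 ± 0.614 in stimulated and 19.5 ± 1.54 in unstimulated libraries, with a difference of -0.01 ± 0.11 in stimulated against unstimulated cells (edgeR adjusted p 0.93).

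**Figure D5:**
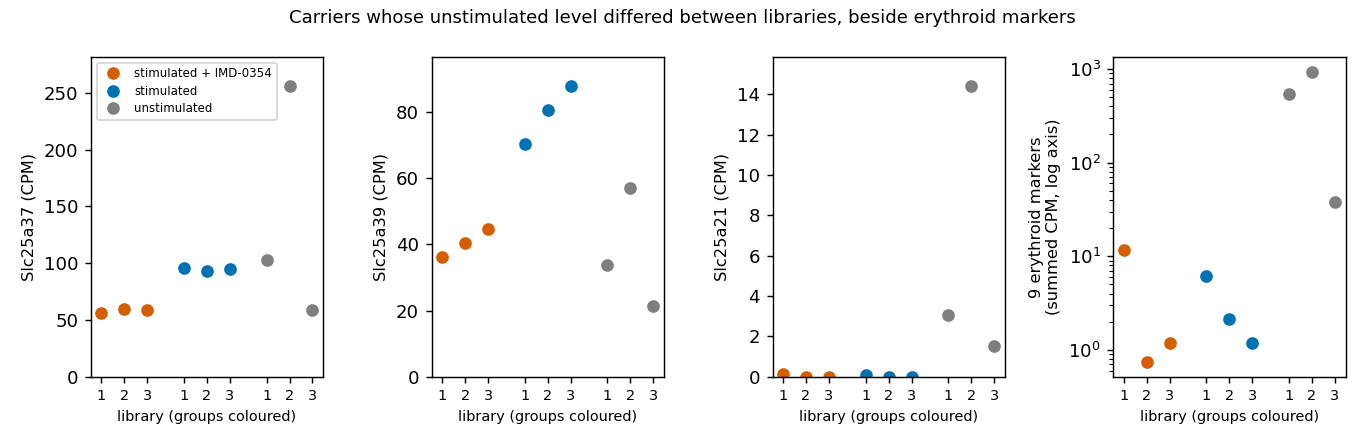
Level of Slc25a37, Slc25a39 and Slc25a21 (CPM) and summed level of 9 erythroid markers (log axis) in each library. Unstimulated library 2 is the highest unstimulated library in all 4 panels and library 3 the lowest, with Slc25a37 at 256 and 58.9 CPM there. The summed myeloid, B cell and platelet markers, which are not drawn, had the same order of unstimulated libraries.

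The last group holds relatives of the uncoupling proteins and members whose substrate is less settled. Of its 10 tested members 2 were higher (20%) and 4 lower (40%) in stimulated cells, where 32.0% and 34.0% of all genes were. With 10 members these shares are rough and give no result about the group. Slc25a30, an uncoupling-protein-like carrier, had 30.2, 34.5 and 36.2 CPM in inhibitor, 81.7, 75.4 and 86.7 in stimulated and 31.0, 28.3 and 34.9 in unstimulated libraries. Stimulated libraries were more than 2 fold above both other groups, which overlapped. It rose by 1.37 ± 0.11 in stimulated cells (edgeR adjusted p 2.9e-06) and fell by 1.27 ± 0.11 with the inhibitor against stimulated cells (adjusted p 1.7e-05), and the value for inhibitor against unstimulated cells was 0.10 ± 0.11 (adjusted p 0.48). Slc25a46, a member of the outer membrane that takes part in mitochondrial fusion and fission, averaged 64.1 ± 6.33 CPM in inhibitor, 83.4 ± 6.49 in stimulated and 50.6 ± 3.67 in unstimulated libraries. It rose by 0.72 in stimulated cells (edgeR adjusted p 0.00013). Its decrease of -0.38 with the inhibitor against stimulated cells (adjusted p 0.012) was at 0.0545 without inhibitor library 2, 0.118 with upper-quartile factors and 0.109 with total counts.

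Slc25a45 had the largest decrease among the 10 tested members of this group in stimulated cells. It stood at 9.73, 11.2 and 10.7 CPM in inhibitor, 5.6, 5.45 and 6.07 in stimulated and 24.5, 23.6 and 28.0 in unstimulated libraries. The groups did not overlap, and per kb of exon its rank among the carriers was 23rd with the inhibitor, 31st in stimulated and 10th in unstimulated cells. It fell by 2.15 ± 0.13 in stimulated cells (edgeR adjusted p 3.4e-07), rose by 0.89 ± 0.12 with the inhibitor over stimulated cells (adjusted p 0.00029) and fell by 1.27 ± 0.12 in inhibitor against unstimulated cells (adjusted p 1.5e-05). Slc25a53 had 7.81, 6.69 and 6.52 CPM in inhibitor, 6.32, 5.17 and 4 in stimulated and 15.6, 15.3 and 22.5 in unstimulated libraries. It fell by 1.79 ± 0.21 in stimulated cells (edgeR adjusted p 4.2e-05) and by 1.35 ± 0.21 in inhibitor against unstimulated cells (adjusted p 0.00042).

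Slc25a27 (Ucp4), an uncoupling protein best known from brain, fell by 0.94 ± 0.23 in stimulated cells (edgeR adjusted p 0.0041), at 5.66 ± 1.18 CPM in inhibitor, 4.2 ± 0.668 in stimulated and 8.07 ± 1.67 in unstimulated libraries. Slc25a35 fell by 0.86 ± 0.19 (edgeR adjusted p 0.0029), at 3.6 ± 0.503, 2.49 ± 0.125 and 4.53 ± 0.461 CPM. Its rise of 0.53 with the inhibitor over stimulated cells (adjusted p 0.048) was at 0.0515 to 0.141 without any 1 of 8 libraries, all but inhibitor library 3, and at 0.0724 with the replicate number as a block in the 6 libraries compared. Of its exon bases 31.3% lie opposite exons of Rangrf, and the strand setting of the counting is not given, so reads of both genes may be mixed. Rangrf had 258 to 340 counts in inhibitor, 412 to 446 in stimulated and 110 to 242 in unstimulated libraries. Slc25a47 rose by 1.20 with the inhibitor over stimulated cells (edgeR adjusted p 0.024) at about 1 CPM, and its adjusted p was 0.0681 to 0.0812 without stimulated library 1 or 2 or inhibitor library 2.

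Of the 47 carriers 4 lie on the X chromosome, whose inactivation the series title names, and the table has no allele-resolved values. Slc25a5 rose and Slc25a53 fell in stimulated cells, as given above. Slc25a14 (Ucp5) averaged 4.54 ± 0.751 CPM in inhibitor, 5.37 ± 0.306 in stimulated and 4.40 ± 0.676 in unstimulated libraries and was called in no comparison. Slc25a43 stayed under 1 CPM in each library and was not called either. Besides these, the tested members with no call in any comparison were Slc25a16, Slc25a28, Slc25a29, Slc25a34 and Slc25a36. Slc25a29, a carrier of basic amino acids, averaged 2.74 ± 0.878 CPM in inhibitor, 2.21 ± 0.609 in stimulated and 3.00 ± 0.764 in unstimulated libraries.

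Carriers are made in the cytosol and reach the inner membrane through the TOM pore, the small TIM chaperones and the TIM22 complex. Of 16 genes of this path 13 rose (81.2%, against 32.0% of all genes) and none fell (against 34.0%) in stimulated cells by edgeR, with a median of 1.43. With the inhibitor against stimulated cells 2 rose (12.5%, against 21.7% of all genes) and 8 fell (50%, against 22.8%), with a median of -0.43. In inhibitor against unstimulated cells 11 rose (68.8%, against 26.3%) and none fell (against 26.1%), with a median of 0.84. Tomm40, the pore itself, averaged 95.9 ± 8.66 CPM in inhibitor, 127 ± 5.37 in stimulated and 30.8 ± 3.18 in unstimulated libraries. It rose by 2.04 ± 0.1 in stimulated cells (edgeR adjusted p 1.4e-07) and fell by 0.40 ± 0.1 with the inhibitor against stimulated cells (adjusted p 0.0075). Timm22, the channel that inserts carriers, rose by 0.86 in stimulated cells (edgeR adjusted p 0.0022), while -0.39 with the inhibitor was not called (adjusted p 0.11).

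Inner membrane transporters of other families had 6 of 16 members higher (37.5%) and 4 lower (25%) in stimulated cells (median 0.17), near the 32.0% and 34.0% of all genes. With the inhibitor against stimulated cells 3 were higher and 3 lower (18.8% each, median -0.08), near the 21.7% and 22.8% of all genes. In inhibitor against unstimulated cells 7 were higher (43.8%, against 26.3% of all genes) and 3 lower (18.8%, against 26.1%), with a median of 0.14. Sfxn1, a serine transporter, averaged 70.4 ± 2.24 CPM in inhibitor, 145 ± 5.41 in stimulated and 40.6 ± 8.4 in unstimulated libraries. Its relative Sfxn3 averaged 41.5 ± 4.44, 7.81 ± 0.516 and 50.7 ± 4.97 CPM, the opposite order. Sfxn1 rose by 1.83 and Sfxn3 fell by 2.7 in stimulated cells (edgeR adjusted p 1.1e-06 and 8.6e-08). With the inhibitor against stimulated cells Sfxn1 fell by 1.04 and Sfxn3 rose by 2.41 (edgeR adjusted p 0.00013 and 8.9e-07).

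Members of the carrier superfamily whose symbols fall outside the rule were Ucp1, Ucp2, Ucp3, Mtch1 and Mtch2. Ucp2, the uncoupling protein of immune cells, averaged 233 ± 9.9 CPM in inhibitor, 437 ± 32.9 in stimulated and 589 ± 86.9 in unstimulated libraries. It fell by 0.43 in stimulated cells (edgeR adjusted p 0.0061) and by 0.90 with the inhibitor against stimulated cells (adjusted p 0.00015). Mtch2, which inserts proteins into the outer membrane, averaged 53.1 ± 4.16, 94.1 ± 7.9 and 35.0 ± 1.54 CPM. It rose by 1.43 in stimulated cells (edgeR adjusted p 7.6e-07) and fell by 0.83 with the inhibitor against stimulated cells (adjusted p 8.8e-05). Ucp1, the thermogenic form of brown fat, was not tested and averaged 0.0542 CPM in inhibitor and 0.0282 in stimulated libraries, with no count in unstimulated libraries.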

How the data were processed

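The authors deposited one table of raw read counts per gene for the 9 libraries, with no normalization visible in the values. Per the submitters' processing notes STAR 2.7.1a, featureCounts and the mm10 build were used. The annotation release, the strand setting and the counting of mates are, in the sources used here, not given. Among counts of 1 to 10 the even ones made up 70.6% to 78.5%, so mates may have been counted singly, and floors cover counting error only. Castaneus reads were compared with a C57BL/6 reference. GENCODE M21 named 49412 of the 49671 identifiers, and the other 259 held at most 0.0359% of a library's counts.

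Genes were kept with filterByExpr in edgeR 4.0.16 (R 4.3.3), scaled with TMM factors (0.925 to 1.122) and fitted in one quasi-likelihood model of all 9 libraries with group as the only term (6 residual degrees of freedom, two-sided tests). The code was tested on simulated counts. CPM is scaled with the same factors. Alternatives were other scalings and filters, DESeq2 1.42.0, limma 3.58.1 (voom), counts divided by 2, fits of 2 groups, a replicate block and leaving out libraries. Deviations of same-numbered stimulated and inhibitor libraries correlated at 0.149, 0.147 and 0.115. Those of unstimulated and stimulated libraries correlated at -0.032 to 0.003 and those of unstimulated and inhibitor libraries at -0.248 to -0.204. Differently numbered libraries were not compared, so these values do not establish pairs, and the labels name none. The main fit therefore ignores any pairing, and only the fits with a replicate block use the numbers. The labels call libraries biological replicates without naming animals, and the p-values reflect only how far these samples spread, which may be technical.

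Any tested carrier could be named, with full statistics for called carriers that changed by at least 1 on the log2 scale at a mean of at least 10 CPM, for Slc25a3, Slc25a4 and Slc25a5, and for close relatives. Other carriers were described where their levels add to a role group. Genes outside the family came from fixed lists. Members and lists were chosen with earlier results of these data known. Values of a few genes are not reported here, although family and list counts include them.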

Additional observations from a re-analysis of the deposited data

How the results depend on the processing

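Of 1932 values of named carriers under alternative settings, 1767 kept their direction and their side of the threshold. The count of carriers lower in inhibitor against stimulated cells, 16, ranged from 12 to 19. Of all 18374 genes 4192 were lower in the main fit. There were 3549 with total counts and 3462 without stimulated library 3, the settings with 12 carriers. In the setting with 19, a replicate block in the 6 libraries compared, there were 4662. With a mean of at least 10 CPM, 6 carriers were lower in stimulated against unstimulated cells, 4 were higher in inhibitor against stimulated cells (3 with no filter, and 3 to 7 leaving out single libraries) and 9 were higher in inhibitor against unstimulated cells. The log2 ratio of summed levels in stimulated against unstimulated cells was 0.68, and 0.46 with upper-quartile factors, 0.48 with total counts and 0.31 without Slc25a3, Slc25a4 and Slc25a5. For inhibitor against stimulated cells it was -0.43, and -0.3 with upper-quartile factors. For inhibitor against unstimulated cells it was 0.25, and -0.1 without those carriers. Upper-quartile factors moved the median of all genes in stimulated against unstimulated cells to -0.27, and total counts to -0.24. In inhibitor against stimulated cells the medians were 0.16 and 0.12, and in inhibitor against unstimulated cells -0.09 and -0.1.

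Some carriers with no call changed sign, most of them at log2 fold changes near 0. In stimulated against unstimulated cells the value of Slc25a16 was 0.18, and -0.04 with upper-quartile factors and -0.01 both with total counts and at 10 CPM. Slc25a36 had 0.07, and -0.15, -0.11 and -0.11 under the same 3 settings and -0.03 to 0.21 leaving out single libraries. Slc25a40 had 0.19, and -0.03 with upper-quartile factors. Leaving out single libraries, Slc25a28 ranged from -0.06 to 0.05 and Slc25a37, at -0.56 with all libraries, from -0.92 to 0.23. In inhibitor against stimulated cells Slc25a3 had 0.08 with upper-quartile factors, 0.03 with total counts and -0.1 to 0.04 leaving out libraries. Slc25a36 had 0.1, 0.05 and, at 10 CPM, 0.01, and -0.1 to 0.06 leaving out libraries. In inhibitor against unstimulated cells Slc25a28 had 0, -0.02 and -0.06 under upper-quartile factors, total counts and the limit of 10 CPM, and Slc25a36 had -0.05, -0.06 and -0.1. With DESeq2 and with its size factors Slc25a36 had -0.01. Slc25a39 had -0.01 with total counts and -0.04 at 10 CPM. Leaving out libraries, Slc25a16 ranged from -0.22 to 0.01, Slc25a36 from -0.04 to 0.17, Slc25a39 from -0.17 to 0.55 and Slc25a42 from -0.17 to 0.03. Without both unstimulated library 2 and inhibitor library 1, a setting chosen after the data were seen, Slc25a28 had 0.03 and Slc25a37 0.2 in stimulated against unstimulated cells, Slc25a3 0.06 in inhibitor against stimulated cells, and Slc25a16 0.08 and Slc25a36 -0.05 in inhibitor against unstimulated cells. The cause of these changes was not tested.

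With the replicate number as a block over all groups, 18 of 42 carriers were higher and 11 lower in stimulated against unstimulated cells. Of all 18374 genes tested, 5705 were higher and 6002 lower there. In inhibitor against stimulated cells 6 carriers were higher and 17 lower, where 3642 and 3940 of all genes were. In inhibitor against unstimulated cells 13 carriers were higher and 10 lower, where 4550 and 4575 of all genes were. The call of Slc25a23 in inhibitor against stimulated cells then had an edgeR adjusted p of 0.0566, that of Slc25a35 0.0863, and that of Slc25a47 in inhibitor against unstimulated cells 0.061. Blocking on the replicate number in the stimulated and inhibitor libraries alone, also chosen after the data were seen, gave 9 higher and 19 lower carriers in inhibitor against stimulated cells. Of all 18374 genes 4026 were higher and 4662 lower in that fit.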
